A study of Mus musculus with 24 samples.

Results

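Rasd1, Mfsd2a, Arrdc3, Gadd45b, and Map3k6 are 5 of the 23972 genes counted in mouse liver, and they were selected on their difference between FGF21 and vehicle in control livers, the contrast in which all 5 passed the test across all genes. Rasd1, Mfsd2a, Gadd45b, and Map3k6 were higher with FGF21 and Arrdc3 was lower. The calls of Arrdc3, Gadd45b, and Map3k6 were lost in most fits that left out 1 control library. Because of the selection, the levels in control livers are a description and carry no test. The livers of Lmna ADKO mice, which played no part in the selection, were tested for the same shift. None of the 5 genes passed the test between FGF21 and vehicle in Lmna ADKO livers.

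Liver RNA came from 24 female mice, all of them Lmna fl/fl. Controls lacked Adipoq-Cre and Lmna ADKO mice, labelled Lmna.KO, carried it, which deletes Lmna in adipocytes and leaves hepatocytes unrecombined, so that these mice lack most adipose tissue. Mice were housed at 22°C, were 12 to 14 weeks old at the start, ate a high-fat diet for 4 weeks, and then received AAV8 expressing FGF21 or vehicle, with tissues taken 8 weeks later. Controls gave 7 libraries on vehicle and 3 on FGF21, and Lmna ADKO mice gave 6 on vehicle and 8 on FGF21, each from a separate animal. The vehicle was a buffer without virus, so FGF21 and the vector itself cannot be told apart. The labels call the treatment a rescue, which was read as FGF21 from the study's description of its liver RNA-Seq.

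The gene counts of a library summed to between 19863304 and 21510054, and levels are given as CPM, the count relative to the library total after TMM scaling. For this experiment, the paper reports that plasma FGF21 rose after transduction, disproportionately so in Lmna ADKO mice. Endogenous plasma FGF21 was also higher in Lmna ADKO mice than in controls. In the liver counts, the level of Fgf21, the hormone supplied by the vector, did not set the treated groups apart. Whether these counts include transcripts of the vector was not tested, so they are no measure of the FGF21 supplied. Fgf21 was at 4.01 ± 3.18 CPM in vehicle-treated controls (SD, n = 7) and 4.78 ± 2.29 in FGF21-treated controls (n = 3). It was at 7.99 ± 2.48 in vehicle-treated Lmna ADKO livers (n = 6) and 5.36 ± 2.41 in FGF21-treated Lmna ADKO livers (n = 8). Lmna was at 18.6 ± 2.47, 18.3 ± 1.76, 26.7 ± 2.57, and 24.7 ± 5.40 CPM in the same order, which is no check of a deletion made in adipocytes. In 3 libraries counts shifted away from long genes, with slopes of log2 CPM on log2 exonic length of -0.33 in FGF21-treated Lmna ADKO library 7, -0.29 in FGF21-treated control library 3, and -0.15 in vehicle-treated control library 3, against -0.11 to 0.13 in the other 21. These 3 libraries were a fixed choice with no stated cutoff, and the slope of -0.15 lies close to the range of the others. Animal numbers have 3 or 4 digits in the labels. Among controls on vehicle, 6 carry 3 digits and only library 7 carries 4, whereas all 3 controls on FGF21 carry 4. In controls, the number series and FGF21 cannot be told apart except through that single library. The vehicle-treated Lmna ADKO group holds 1 library with 3 digits (library 1) and 5 with 4, and the FGF21-treated Lmna ADKO group holds 4 (libraries 1 to 4) and 4.

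The 5 genes act in different processes. FGF21 is a hormone of liver origin that signals through FGF receptors and the co-receptor β-Klotho in adipose tissue, brain, and other tissues, and it raises fatty acid use and insulin sensitivity. Rasd1 encodes a small GTPase of the Ras family named for its induction by the glucocorticoid dexamethasone. Mfsd2a encodes a transporter that carries lysophosphatidylcholine with long-chain unsaturated fatty acids into cells and is known in liver as a gene of the fasting response. Gadd45b encodes a stress-inducible protein that binds and activates a kinase upstream of p38 and JNK, and Map3k6 encodes ASK2, a kinase at the head of the same cascades. Arrdc3 encodes an α-arrestin that brings NEDD4-type ubiquitin ligases to membrane receptors, among them β-adrenergic receptors.

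On GRCm38, Rasd1 lies on the minus strand of chromosome 11 (59963181 to 59964944) and Mfsd2a on the minus strand of chromosome 4 (122946850 to 122961188). Map3k6 lies on the plus strand of chromosome 4 (133240818 to 133252929), Gadd45b on the plus strand of chromosome 10 (80930073 to 80932204), and Arrdc3 on the plus strand of chromosome 13 (80883384 to 80896042). All 5 are protein-coding. Arrdc3 overlaps the antisense gene 1700023H06Rik, which held at most 5 counts in any library. Promoter sequence, 250 bases before to 50 after the start, was found for 4 of the 5 in RefSeq (GRCm38.p6) and not for Rasd1. The windows of the 3 genes that were higher with FGF21 in controls and of the gene that was lower are shown so that their starts can be compared, each on the strand of its gene, with the E-box CACGTG in capitals. They are Mfsd2a (chr4:122961139-122961438, minus strand), Map3k6 (chr4:133240568-133240867, plus strand), Gadd45b (chr10:80929841-80930140, plus strand), and Arrdc3 (chr13:80883134-80883433, plus strand).
Mfsd2a: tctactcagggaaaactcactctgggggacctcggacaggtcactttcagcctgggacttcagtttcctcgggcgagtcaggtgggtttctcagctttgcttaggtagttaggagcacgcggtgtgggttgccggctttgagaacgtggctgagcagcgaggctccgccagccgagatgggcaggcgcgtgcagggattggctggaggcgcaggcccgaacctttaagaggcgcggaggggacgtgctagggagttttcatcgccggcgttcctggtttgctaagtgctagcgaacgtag
Map3k6: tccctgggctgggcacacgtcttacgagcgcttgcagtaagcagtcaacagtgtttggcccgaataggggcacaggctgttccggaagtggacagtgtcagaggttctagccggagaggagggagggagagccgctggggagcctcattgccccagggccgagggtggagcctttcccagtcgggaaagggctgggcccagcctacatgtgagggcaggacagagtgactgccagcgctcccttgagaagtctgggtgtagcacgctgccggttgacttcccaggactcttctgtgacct
Gadd45b: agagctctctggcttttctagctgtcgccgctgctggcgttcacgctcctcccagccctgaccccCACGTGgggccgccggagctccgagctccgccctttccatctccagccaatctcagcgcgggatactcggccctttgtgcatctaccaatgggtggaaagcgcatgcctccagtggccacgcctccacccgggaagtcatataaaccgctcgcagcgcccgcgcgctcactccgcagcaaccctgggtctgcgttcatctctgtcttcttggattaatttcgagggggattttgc
Arrdc3: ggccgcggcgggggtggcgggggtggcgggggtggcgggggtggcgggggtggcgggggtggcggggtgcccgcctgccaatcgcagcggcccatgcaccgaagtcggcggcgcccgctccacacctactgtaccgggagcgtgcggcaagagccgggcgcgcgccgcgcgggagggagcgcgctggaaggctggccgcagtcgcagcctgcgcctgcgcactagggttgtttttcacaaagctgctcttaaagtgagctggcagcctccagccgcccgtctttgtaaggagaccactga

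The E-box, read on both strands, occurred once, in the Gadd45b window at bases 66 to 71 (position -185 from the RefSeq start), and is present in 7.15% of all 32851 windows of this length. No window of the 4 genes held AGAACA, the half-site of the glucocorticoid receptor (19% of all windows), GTAAACA, a FOXO site (3.65%), TGACGTCA, the cAMP response element (1.79%), TGACTCA, an AP-1 site (5.2%), the full glucocorticoid receptor palindrome (0.00913%), or the PPAR direct repeat (0.0396%). GC content was 60.3% for Mfsd2a, 62% for Map3k6 and for Gadd45b, and 73% for Arrdc3, whose window opens with a run of short tandem repeats, against a median of 52.7% over all windows. These matches describe letters in 300 bases and say nothing of binding.

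In controls, FGF21 livers and vehicle livers did not overlap for any of the 5 genes. The genes were selected on their difference in this contrast, so the lack of overlap is no separate result. The share of all genes without overlap was not counted. A gene counted as called when its adjusted p was below 0.05 (edgeR's quasi-likelihood test, Benjamini-Hochberg) and its fold change above 1.5, and 13 of 23972 genes (0.0542%) were called in controls, 12 higher (0.0501%) and 1 lower (0.00417%). The 5 genes ranked 1 (Rasd1), 2 (Mfsd2a), 9 (Gadd45b), 11 (Arrdc3), and 13 (Map3k6) by adjusted p. When each control library was left out in turn, Rasd1 and Mfsd2a stayed called in 10 of 10 fits. Arrdc3 stayed called in 4, Gadd45b in 3, and Map3k6 in 2 of the 10. These fits reuse the control libraries that selected the genes, so a call kept in them is no separate support. With the number series as a covariate, 0 of the 5 genes were called. The lowest-ranked of them, Map3k6, had an adjusted p of 0.0397 in this edgeR fit, the gene just above it, Itprip, had 0.0382, and the gene just outside the threshold, Gja1, had 0.0591, with 4.23 CPM on vehicle and 7.69 CPM on FGF21. The number called ranged from 3 without FGF21-treated control library 2 to 26 without vehicle-treated control library 6, and was 0 with the number series as a covariate and with 4-digit libraries alone.

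**Figure D1:**
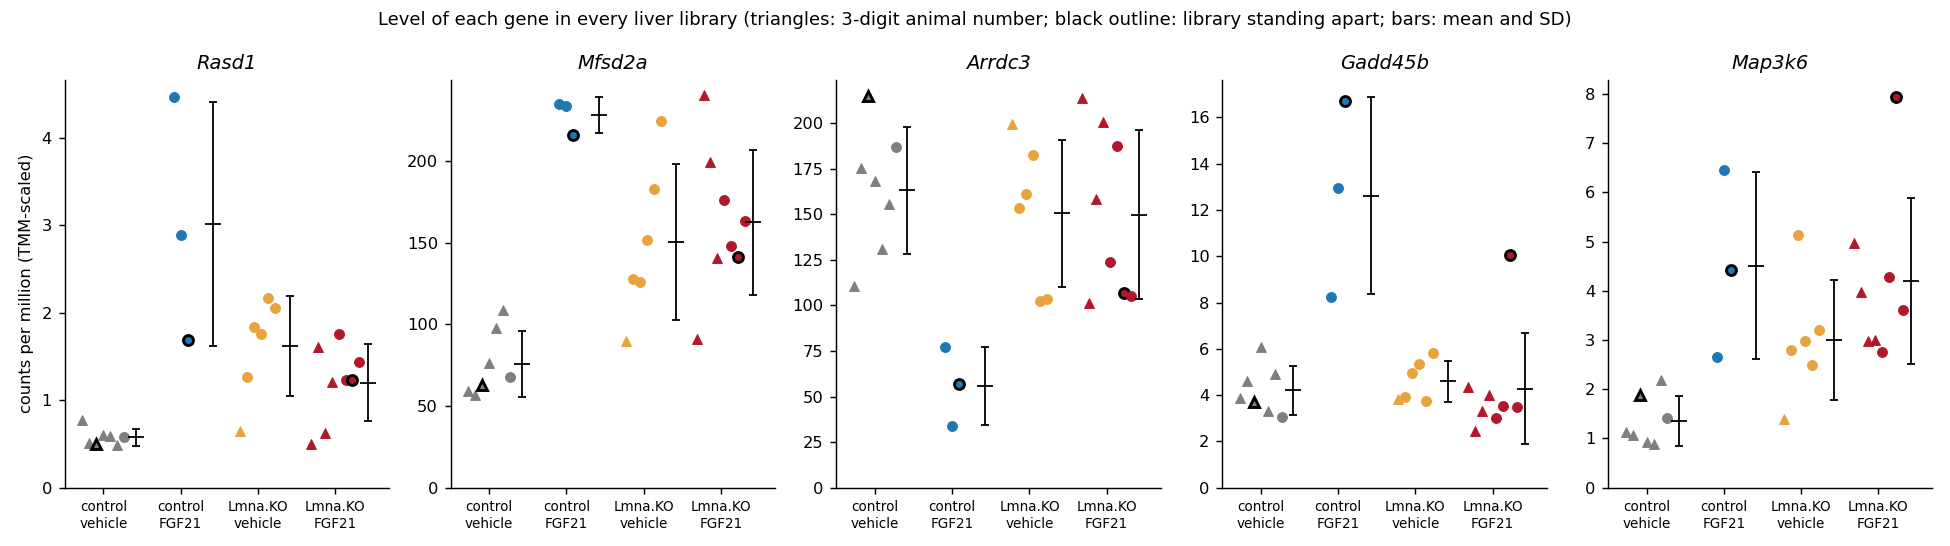
Level of the 5 genes (CPM, linear axes from 0) in each of the 24 livers, by genotype and treatment, with the mean and SD beside each group. Triangles are animals with 3-digit numbers, circles those with 4-digit numbers, and a black outline marks the 3 libraries with a shifted length slope. The 3 FGF21-treated controls lie apart from the 7 vehicle-treated controls in every panel, whereas the Lmna ADKO groups overlap in every panel.

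Rasd1 was the gene with the highest fold difference of the 5 in controls and the second least abundant per length (0.359 CPM per kb of exon in vehicle-treated controls). In FGF21-treated controls it was at 4.47, 2.90, and 1.69 CPM in libraries 1 to 3, and in vehicle-treated controls it ran from 0.486 through a median of 0.585 to 0.771 CPM. All 3 treated libraries exceeded every vehicle library, on counts of 29 to 94 against 9 to 17. The log2 difference was 2.38 (SE 0.33), a 5.19-fold higher level, and was 1.98 without FGF21-treated control library 1. Vehicle-treated Lmna ADKO livers ran from 0.648 through 1.79 to 2.18 CPM, and FGF21-treated Lmna ADKO livers from 0.506 through 1.23 to 1.76 CPM. The estimate in Lmna ADKO livers had the opposite sign to that in controls, a log2 difference between FGF21 and vehicle of -0.44 (SE 0.26, 95% interval -0.98 to 0.10, edgeR adjusted p = 0.725). The groups overlapped, with 2 of 8 FGF21 libraries below all 6 vehicle libraries and 0 above them. With the number series as a covariate the log2 difference was -0.21 (edgeR adjusted p = 0.877). From low to high the group means were vehicle-treated controls, FGF21-treated Lmna ADKO (1.20 ± 0.44 CPM), vehicle-treated Lmna ADKO (1.62 ± 0.57), and FGF21-treated controls (3.02 ± 1.39), and each neighbouring pair overlapped.

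Mfsd2a was the most abundant of the 5 per length (33.6 CPM per kb in vehicle-treated controls). FGF21-treated controls were at 235, 234, and 216 CPM, a narrow range, and vehicle-treated controls ran from 56.5 through 67.8 to 109 CPM. The treated libraries all lay far above the vehicle range, with a log2 difference of 1.59 (SE 0.24), 3.02-fold. Without FGF21-treated control library 3 and the other 2 libraries with a shifted length slope it was again 1.59. In Lmna ADKO livers vehicle libraries ran from 90.0 through 140 to 224 CPM and FGF21 libraries from 90.9 through 156 to 241 CPM. These ranges almost coincide. The log2 difference in Lmna ADKO livers was 0.11 (SE 0.19, 95% interval -0.29 to 0.51, edgeR adjusted p = 0.925). In order of their means the groups were vehicle-treated controls (75.6 ± 20.2 CPM), vehicle-treated Lmna ADKO (150 ± 47.5), FGF21-treated Lmna ADKO (162 ± 44.5), and FGF21-treated controls (228 ± 10.8). Each neighbouring pair overlapped.

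Gadd45b was at 8.22, 12.9, and 16.7 CPM in FGF21-treated controls and ran from 3.07 through 3.86 to 6.08 CPM in vehicle-treated controls. The treated libraries were all higher, with the highest value in library 3, a library with a shifted length slope. The log2 difference in controls was 1.58 (SE 0.29), 2.98-fold, and 1.295 without the 3 such libraries. In Lmna ADKO livers the vehicle group ran from 3.75 through 4.44 to 5.81 CPM and the FGF21 group from 2.46 through 3.51 to 10.05 CPM. The value of 10.05 CPM belongs to library 7, which also has a shifted length slope, and 5 of the 8 FGF21 libraries lay below all 6 vehicle libraries. The log2 difference in Lmna ADKO livers was -0.12 (SE 0.24, 95% interval -0.62 to 0.38, edgeR adjusted p = 0.950). It was -0.42 without the 3 libraries, at an unadjusted p of 0.0157 and an edgeR adjusted p of 0.455. The vehicle-treated Lmna ADKO group (4.61 ± 0.89 CPM), the FGF21-treated Lmna ADKO group (4.28 ± 2.40), and the vehicle-treated controls (4.21 ± 1.05) had overlapping ranges. FGF21-treated controls (12.6 ± 4.25) exceeded all libraries of these groups except library 7 of the FGF21-treated Lmna ADKO group.

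Map3k6 was a gene of low counts, 18 to 135 per library, and the least abundant per length (0.295 CPM per kb in vehicle-treated controls). It was at 2.66, 6.44, and 4.43 CPM in FGF21-treated controls and ran from 0.885 through 1.13 to 2.19 CPM in vehicle-treated controls. The nearest libraries of the groups, at 2.66 and 2.19 CPM, lay close together. The log2 difference in controls was 1.73 (SE 0.34), 3.32-fold. Vehicle-treated Lmna ADKO livers ran from 1.39 through 2.88 to 5.13 CPM and FGF21-treated Lmna ADKO livers from 2.76 through 3.79 to 7.93 CPM, the latter value in library 7. Of the 5 genes Map3k6 alone had a positive log2 difference above 0.2 in Lmna ADKO livers, 0.47, but this was within the error (SE 0.27, 95% interval -0.075 to 1.02, edgeR adjusted p = 0.725), and it was 0.28 without the 3 libraries of shifted slope. It was 0.64 with the number series as a covariate (unadjusted p 0.0281, edgeR adjusted p = 0.730) and 0.70 without vehicle-treated Lmna ADKO library 3 (unadjusted p 0.0151, edgeR adjusted p = 0.8001). The order of the means was vehicle-treated controls (1.36 ± 0.50 CPM), vehicle-treated Lmna ADKO (3.00 ± 1.22), FGF21-treated Lmna ADKO (4.19 ± 1.69), and FGF21-treated controls (4.51 ± 1.89), and neighbours overlapped at each step.

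Arrdc3 was the only gene called lower with FGF21 in controls. It was at 76.9, 34.1, and 56.7 CPM in FGF21-treated controls and ran from 111 through 168 to 215 CPM in vehicle-treated controls. Every treated library lay below every vehicle library. The log2 difference was -1.55 (SE 0.29), a level 0.343 times that on vehicle. In Lmna ADKO livers vehicle libraries ran from 102.5 through 157 to 200 CPM and FGF21 libraries from 101 through 141 to 214 CPM. The log2 difference there was -0.0075 (SE 0.21, 95% interval -0.44 to 0.42, edgeR adjusted p = 1). Vehicle-treated controls (163 ± 34.8 CPM), vehicle-treated Lmna ADKO (150 ± 40.2), and FGF21-treated Lmna ADKO livers (150 ± 46.4) overlapped, and all 8 FGF21-treated Lmna ADKO libraries exceeded all 3 FGF21-treated controls (55.9 ± 21.4).

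**Figure D2:**
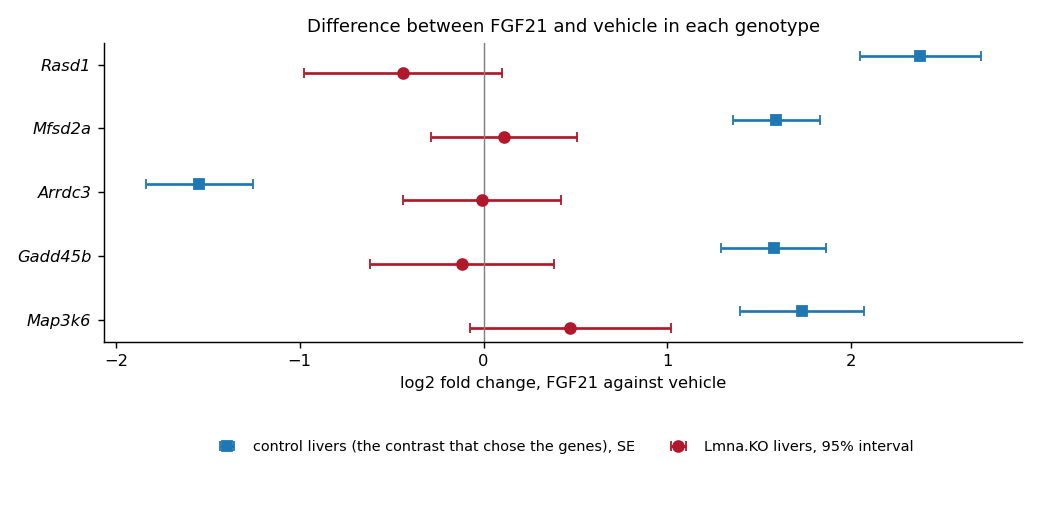
Log2 fold change of FGF21 against vehicle for the 5 genes, in control livers (squares, bars are the SE, the contrast that selected the genes) and in Lmna ADKO livers (circles, bars are the 95% interval). Each Lmna ADKO interval spans 0. The control estimates, from 2.38 for Rasd1 to -1.55 for Arrdc3, are the values that chose the genes.

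With FGF21 in Lmna ADKO livers, 0 of the 5 genes were called, and 0 of the 5 had an unadjusted p under 0.05. Across all 23972 genes edgeR called 0 (0%) there, 1608 (6.71%) had an unadjusted p under 0.05, and DESeq2 called 15. Leaving out FGF21-treated Lmna ADKO library 3 gave 61 called genes, none of them among the 5. The intervals in Lmna ADKO livers excluded log2 differences above 0.10 for Rasd1, 0.51 for Mfsd2a, 0.38 for Gadd45b, and 1.02 for Map3k6, and below -0.44 for Arrdc3. The difference between genotypes in the FGF21 shift, Lmna ADKO minus control, was -2.81 for Rasd1, -1.48 for Mfsd2a, -1.69 for Gadd45b, -1.26 for Map3k6, and 1.54 for Arrdc3 on the log2 scale. These values share the control libraries that selected the genes and were not tested.

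The 5 genes divided by their level in vehicle-treated livers. Rasd1, Mfsd2a, and Map3k6 were higher in vehicle-treated Lmna ADKO livers than in vehicle-treated controls, by log2 differences of 1.48 (SE 0.29), 0.99 (SE 0.20), and 1.15 (SE 0.29). In this comparison 8.48% of all genes were called. For each of the 3 genes, 5 of 6 Lmna ADKO libraries exceeded all 7 controls, a pattern whose share over all genes was not counted. The exception was library 1 each time, at 0.648, 90.0, and 1.39 CPM, and it is the only library of the group with a 3-digit animal number, as 6 of the 7 vehicle-treated controls have. Arrdc3 and Gadd45b had log2 differences of -0.12 (SE 0.22) and 0.13 (SE 0.25) between the same groups. With FGF21 in both genotypes, the log2 difference of Lmna ADKO from control was -1.34 for Rasd1, -0.49 for Mfsd2a, -0.11 for Map3k6, -1.57 for Gadd45b, and 1.42 for Arrdc3. Comparisons of genotype reuse the control libraries that selected the genes, so they are given as descriptions. In these bulk samples, fewer cells of a type and less RNA per cell cannot be told apart.

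Within Lmna ADKO livers, Rasd1 and Arrdc3 had the medians that differed most between the number series, but the series also differ in treatment. With FGF21, 4 animals have 3 digits and 4 have 4 digits, against 1 and 5 with vehicle. In the FGF21 group alone the Rasd1 ranges overlapped, at 0.506 to 1.61 CPM with 3 digits and 1.23 to 1.76 CPM with 4. Over both treatments, Rasd1 ran from 0.506 through 0.648 to 1.61 CPM in the 5 animals with 3-digit numbers and from 1.23 through 1.75 to 2.18 CPM in the 9 with 4-digit numbers. Mfsd2a had medians of 141 and 151 CPM, Gadd45b of 3.84 and 3.92, Map3k6 of 3.00 and 3.20, and Arrdc3 of 200 and 124 CPM in these series. Within the 4-digit Lmna ADKO libraries alone, the log2 differences between FGF21 and vehicle were -0.36 for Rasd1, -0.05 for Mfsd2a, 0.06 for Gadd45b, 0.47 for Map3k6, and -0.11 for Arrdc3. In controls, library 7 of the vehicle group has a 4-digit number like the treated animals, and it was at 0.585 CPM for Rasd1, 67.8 for Mfsd2a, 187 for Arrdc3, 3.07 for Gadd45b, and 1.41 for Map3k6. All of these values lie within the range of the other 6 vehicle-treated controls except that of Gadd45b, which was the lowest of the 7. Set against this library alone, the control log2 differences were 2.38 for Rasd1, 1.77 for Mfsd2a, 2.05 for Gadd45b, 1.69 for Map3k6, and -1.73 for Arrdc3.

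Within the 14 Lmna ADKO livers, the level of Arrdc3 ran opposite to that of Mfsd2a and Rasd1 from animal to animal. Pearson's r of log2 CPM was -0.72 for Mfsd2a and Arrdc3 (Spearman's rho -0.76) and -0.62 for Rasd1 and Arrdc3 (rho -0.67), and 0.58 for Rasd1 and Mfsd2a (rho 0.47). With the means of the treatment groups removed, r was -0.73, -0.67, and 0.68. Without the 2 libraries farthest from the median of the first gene it was -0.58, -0.56, and 0.75, and within the 9 libraries of the 4-digit series it was -0.61, -0.30, and 0.61. Over the 7 vehicle-treated controls the same 3 pairs had r of -0.20, -0.74, and -0.30, so that the pairing of Rasd1 with Mfsd2a had the opposite sign there. Gadd45b and Map3k6 had an r of 0.49, which was 0.07 without library 7, the highest for both genes. The other 6 pairs lay between -0.24 and 0.08. These 10 values describe libraries that share scaling and number series, and no test was made.

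**Figure D3:**
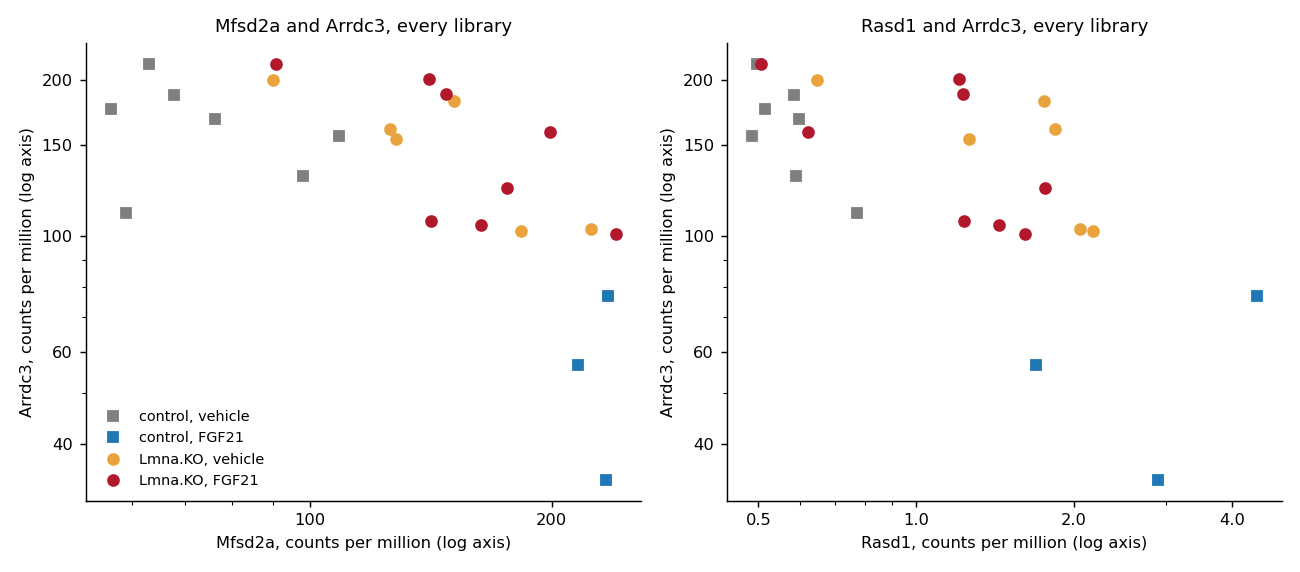
Arrdc3 (CPM, log axis) against Mfsd2a (left) and Rasd1 (right, CPM, log axes) in each of the 24 livers, coloured by group, with squares for controls and circles for Lmna ADKO. Arrdc3 was lower where Mfsd2a and Rasd1 were higher among the 14 Lmna ADKO livers (r = -0.72 and -0.62), and the FGF21-treated controls lie at the lower right.

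The genes most like each of the 5 over all 24 libraries were found among 12491 other genes whose log2 CPM averaged 0 or more. Cebpd, which encodes a transcription factor of the C/EBP family induced by stress and glucocorticoids, was among the 3 nearest to Rasd1 (r = 0.78, and 0.66 over the 14 Lmna ADKO libraries), to Mfsd2a (0.81 and 0.45), and to Map3k6 (0.83 and 0.54). The others nearest to Rasd1 were Mfsd2a itself (0.80 and 0.58) and the related factor Cebpb (0.78 and 0.71). Nearest to Mfsd2a was 1810055G02Rik (0.85 and 0.76), with AA986860 (0.81 and 0.54). Map3k6 was also near Efhd2 (0.82 and 0.57) and Chd9 (0.82 and 0.66). Gadd45b had other neighbours, Ppan (0.78 and 0.87), a ribosome assembly factor, Cdkn2aipnl (0.77 and 0.71), and Kti12 (0.76 and 0.66). Arrdc3 was nearest to Stard3nl (0.74 and 0.44), Serpinb8 (0.73 and 0.46), and Gm26684 (0.71 and 0.51). The control libraries that selected the genes contribute to the values over 24 libraries.

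Because Rasd1 is known as a glucocorticoid-induced gene, 20 known targets and regulators of the glucocorticoid response in liver were described beside the 5 genes. The list was chosen with earlier results of these data known. Its values in controls therefore describe these genes and do not test a glucocorticoid response. In controls, 1 of the 20 was called, Cebpd, which was higher with FGF21, and 19 did not pass. Cebpd was at 5.76 ± 1.03 CPM in vehicle-treated controls (n = 7) and 15.04 ± 1.49 in FGF21-treated controls (n = 3), a log2 fold change of 1.38 (SE 0.25, edgeR adjusted p = 0.0268). This call was lost in 9 of 10 fits that left out a control library, all but that without vehicle-treated control library 6, with log2 fold changes of 1.32 to 1.46 and edgeR adjusted p of 0.0215 to 0.195. It was also lost with the number series as a covariate, in 4-digit libraries alone, with the length slope as a covariate, and without the 3 libraries of shifted slope, where the estimates were 1.01, 1.70, 1.28, and 1.40. The median log2 fold change of the list was 1.001 in controls, against 0 over all genes, 18 of 20 estimates were above 0, and 13 of 20 had an unadjusted p under 0.05, against 6.16% of all genes. Among those that did not pass after adjustment, named here after their values were seen, the estimates were 1.68 (SE 0.42, edgeR adjusted p = 0.289) for Ddit4, an inhibitor of mTORC1, 1.29 (SE 0.43) for the clock gene Per1, 1.22 (SE 0.39) for tyrosine aminotransferase Tat, 1.04 (SE 0.27) for the gluconeogenic enzyme Pck1, 1.001 (SE 0.41) for Tsc22d3, and 0.98 (SE 0.39) for Fkbp5. Other genes of the list were below or near 0, with estimates of -0.30 for Nr3c1, -0.26 for Lcn2, 0.07 for Hsd11b1, 0.12 for Klf9, and 0.16 for Tdo2. Without FGF21-treated control library 2 the number of the 20 genes with an unadjusted p under 0.05 was 6. With the number series as a covariate it was also 6, with a median of 0.81.

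Of the same 20 glucocorticoid genes, 0 were called in Lmna ADKO livers, 1 had an unadjusted p under 0.05, against 6.71% of all genes, and the median was 0.24, with 18 of 20 estimates above 0. That gene was Mt1, at 1.08 (SE 0.45, edgeR adjusted p = 0.704) in Lmna ADKO livers and 1.53 (SE 0.53) in controls. Its relative Mt2 was at 1.18 (SE 0.59) and 1.76 (SE 0.68). The difference between genotypes was not tested for this list. Cebpd had a log2 fold change of 0.03 in Lmna ADKO livers (SE 0.20, edgeR adjusted p = 0.984). Like Rasd1, Mfsd2a, and Map3k6, Cebpd was higher in vehicle-treated Lmna ADKO livers (12.9 ± 4.94 CPM, n = 6) than in vehicle-treated controls. The log2 difference was 1.17 (SE 0.21, edgeR adjusted p = 0.000452), and Cebpd was at 13.2 ± 3.83 CPM in FGF21-treated Lmna ADKO livers. Its likeness to the 3 genes was found over all 24 libraries, which include these groups. Animal numbers have 3 digits in 6 of 7 vehicle-treated controls and 1 of 6 vehicle-treated Lmna ADKO mice, and the part of the number series was not tested. Of the 20 genes 3 were called between genotypes with vehicle, where 8.48% of all genes were called: Cebpd and Ddit4 were higher in Lmna ADKO livers, and Mt1, a metallothionein, was lower. Ddit4 was at 3.37 CPM in vehicle-treated controls, 10.8 in FGF21-treated controls, and 15.1 in both Lmna ADKO groups. This comparison and that of FGF21 in controls share the vehicle-treated controls.

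**Figure D4:**
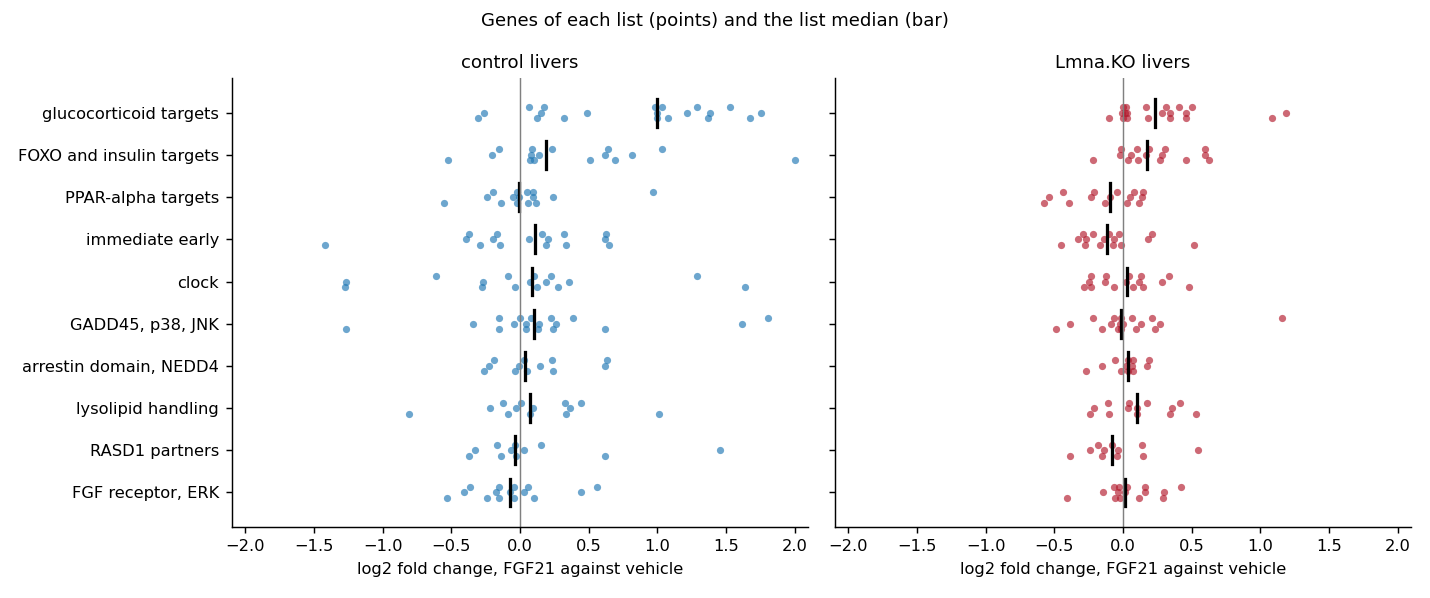
Log2 fold change of FGF21 against vehicle for the genes of 10 lists (points) with the median of each list (bar), in control livers (left) and Lmna ADKO livers (right). The glucocorticoid list had a median of 1.001 in controls and 0.24 in Lmna ADKO livers, and the medians of the other lists lay between -0.12 and 0.19.

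The pathways around the 5 genes held no other called gene in either genotype. Of all genes, 0.0542% were called in controls and 0% in Lmna ADKO livers, so 0 calls in lists this short do not set these pathways apart. An unadjusted p under 0.05 was found for 6.16% of all genes in controls and 6.71% in Lmna ADKO livers. Around Rasd1, 11 relatives and binding partners had 0 called in controls and 0 in Lmna ADKO livers, with 0 and 1 at an unadjusted p under 0.05. Around Mfsd2a, 13 genes of lysophospholipid handling had 0 and 0 called, and 2 and 2 at that level. Around Gadd45b and Map3k6, 18 genes of the GADD45, p38, and JNK cascades had 0 and 0 called, and 4 and 0 at that level. Of the relatives of Gadd45b, Gadd45a had a negative estimate in controls (-1.27, SE 0.32, edgeR adjusted p = 0.289). Gadd45g had a positive one (1.81, SE 0.74, edgeR adjusted p = 0.753). The remaining genes of this list at that level in controls, Cdkn1a (1.62, SE 0.53) and Txnip (0.62, SE 0.28), also had positive estimates. Around Arrdc3, 12 of 13 listed arrestin-domain and ubiquitin ligase genes were in the table, with 0 and 0 called, and 1 and 0 at an unadjusted p under 0.05.

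The lists of wider responses were alike in this respect. The 16 FOXO and insulin targets had 0 called in controls and 0 in Lmna ADKO livers, with 6 and 4 at an unadjusted p under 0.05 and medians of 0.19 and 0.18. The 15 PPARα targets had 0 and 0 called (1 and 2 unadjusted), the 16 immediate early genes 0 and 0 (3 and 0), the 16 clock genes 0 and 0 (3 and 1), and the 15 genes of FGF receptors and ERK feedback 0 and 0 (1 and 0). Over all 148 genes of the 10 lists, 1 was called in controls and 0 in Lmna ADKO livers, and 20.3% and 7.43% had an unadjusted p under 0.05, against 6.16% and 6.71% of all genes.

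Of the markers of liver and other cell types, 0 were called with FGF21 in either genotype. Of all genes, 0.0542% were called in controls and 0% in Lmna ADKO livers. The summed level of 8 endothelial markers was 339 to 362 CPM in FGF21-treated controls and 274 to 338 in vehicle-treated controls, which did not overlap. Of these 8 genes 0 were called and 2 had an unadjusted p under 0.05, against 6.16% of all genes. Their part in the result for the 5 genes was not tested. The sums of 8 hepatocyte markers (122060 to 131866 CPM against 87010 to 149846), 8 macrophage markers (584 to 920 against 636 to 898), 8 stellate cell markers (256 to 275 against 227 to 325), 8 cholangiocyte markers (43.2 to 53.4 against 40.5 to 66.5), 8 lymphocyte markers (7.94 to 16.6 against 7.03 to 14.97), 5 erythroid markers (656 to 3148 against 283 to 2037), and 6 adipocyte markers (7.99 to 13.2 against 5.81 to 11.2) overlapped. The estimates of the adipocyte markers were above 0 for 6 of 6, with a median log2 fold change of 1.40. Of these 6 genes 0 were called and 2 had an unadjusted p under 0.05, against 6.16% of all genes. Adipoq averaged 0.101 CPM in vehicle-treated controls (0 to 13 counts) and 0.179 CPM in FGF21-treated controls (9, 1, and 1 counts), and Lep had 4 counts in FGF21-treated control library 1 and 0 in each of the other 9 controls. The part of these markers in the result for the 5 genes was not tested. In vehicle-treated Lmna ADKO livers, where Rasd1, Mfsd2a, and Map3k6 were higher than in controls, markers of several cell types differed as well. Between these vehicle-treated groups 8.48% of all genes were called. Cholangiocyte markers summed to 100 to 213 CPM, above all vehicle-treated controls, with 3 of 8 called higher and a median of 0.81 on the log2 scale. Stellate cell markers summed to 304 to 447 CPM, with 3 of 8 called higher and a median of 0.60, and hepatocyte markers to 72971 to 110000 CPM, with 3 of 8 called lower and a median of -0.46. Of 8 endothelial markers 1 was called higher (Lyve1) and of 5 erythroid markers 1 was called higher (Alas2), and 0 of 8 macrophage and 0 of 8 lymphocyte markers were called. Adipocyte markers summed to 13.8 to 26.2 CPM, above all vehicle-treated controls, but only Fabp4 (called) and Cfd (not called) of the 6 had estimates above 0, the median was -0.47, Adipoq averaged 0.0374 CPM, and Lep was at 0. The part of these markers in the levels of the 3 genes was not tested. Between FGF21 and vehicle in Lmna ADKO livers, 5 of 8 hepatocyte markers (sums of 71464 to 150374 CPM against 72971 to 110000) had an unadjusted p under 0.05. So did 4 of 5 erythroid markers (1203 to 7473 against 709 to 3758), against 6.71% of all genes. The part of these markers in the estimates for the 5 genes was not tested.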

How the data were processed

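PolyA-selected, strand-specific liver libraries were counted per gene, and the authors deposited whole-number counts without normalization. The processing notes name cutadapt 4.8, FastQC 0.11.8, STAR 2.7.8a, RSEM 1.3.3, and GRCm38, so the counts may be rounded estimates, and the use of strand is not given in the sources used here. Genes with no count in any sample had been removed by the authors. All 23972 genes were fitted together over the 4 groups, from the labels, with edgeR 4.0.16 in R 4.3.3 (TMM, robust quasi-likelihood), with p-values adjusted by Benjamini-Hochberg over all genes. Library sizes for CPM were TMM-scaled, with a prior count of 2 on the log2 scale. The method was tested on simulated data. The 67 pairs of libraries within groups differed by more than sampling noise (chi-square per degree of freedom 14.1 to 196), and none was merged.

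The members and gene lists were chosen with earlier results of these data known. Named genes are the 5 members, the 3 genes most correlated with each, up to 3 called genes per list, the neighbours of the lowest-ranked member by adjusted p, Fgf21, Lmna, and defining markers. Other genes were named after their values were seen. Alternatives were DESeq2 1.42.0, its size factors in edgeR, filterByExpr, no fold threshold, the compared groups alone, the number series as a covariate or its 4-digit part alone, the length slope (over 9694 genes with a mean log2 CPM above 2) as a covariate, omission of 3 libraries, and omission of each library in turn. Gene positions came from GENCODE M21 and promoters from RefSeq.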

Additional observations from a re-analysis of the deposited data

Results flagged for a closer look

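Of 15 sets of 6 to 8 libraries examined for the 5 genes, 3 held a library far from the others by Dixon's criterion, which chance gives in about 1 of 20 sets. The 3 FGF21-treated controls were too few to be examined. Rasd1 in vehicle-treated controls was highest in library 1, at 0.771 CPM with the next library at 0.598 CPM. Gadd45b in FGF21-treated Lmna ADKO livers was highest in library 7, at 10.05 CPM with the next at 4.37 CPM. Map3k6 in the same group was also highest in library 7, at 7.93 CPM with the next at 4.96 CPM. Library 7 is the library with the most negative length slope, and without it the log2 difference between FGF21 and vehicle in Lmna ADKO livers was -0.41 for Gadd45b and 0.28 for Map3k6.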

How the results depend on the processing

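No alternative called any of the 5 genes in Lmna ADKO livers, and none reversed a direction in controls. For Lmna ADKO, 4-digit libraries alone turned the sign of Mfsd2a (log2 difference -0.053) and Gadd45b (0.060), and Arrdc3 became 0.0088 with the length slope as a covariate and 0.046 without the 3 libraries that stand apart. Leaving out each library in turn gave -0.60 to -0.32 for Rasd1, 0.00033 to 0.26 for Mfsd2a, -0.099 to 0.090 for Arrdc3, -0.41 to -0.03 for Gadd45b, and 0.28 to 0.70 for Map3k6, and the lowest adjusted p was 0.508 (Map3k6). In controls, Rasd1 had a log2 difference of 1.84 with the number series as a covariate, and Gadd45b had 2.05 in 4-digit libraries alone, where a lone vehicle library is assumed to vary like the other groups. Leaving out each library gave 1.98 to 2.65 for Rasd1, 1.53 to 1.70 for Mfsd2a, -1.85 to -1.29 for Arrdc3, 1.32 to 1.81 for Gadd45b, and 1.38 to 2.01 for Map3k6.

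The number of genes called in controls was 13, and was 38 with DESeq2, 0 with the number series as a covariate, 0 in 4-digit libraries alone, and 3 to 26 when each library was left out (8 without FGF21-treated control library 1 or vehicle-treated control library 2, 3, or 7). Of the listed genes, 1 was called in controls, 5 with DESeq2, 2 with only the groups compared, 0 with the number series, the 4-digit libraries, the length slope, or without the 3 libraries, and 0 to 2 when each library was left out, Cebpd being called in 1 of those 10 fits. For Lmna ADKO livers the number called was 0, and was 15 with DESeq2, 2 in 4-digit libraries alone, and 0 to 61 when each library was left out, and 0 listed genes were called throughout. Glucocorticoid targets with an unadjusted p under 0.05 in controls, a count added after seeing the data, numbered 13, and 8 with only the groups compared, 7 in 4-digit libraries alone, and 6 to 14 when each library was left out. The causes were not tested. Rasd1 rested on 9 to 94 counts per library and Map3k6 on 18 to 135. No paired analysis was possible because each animal number occurs once in the labels.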
